A study of Mus musculus with 16 samples.

Results

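The IFITM family of small interferon-induced transmembrane proteins was followed across 16 MC38 tumors by 5 genes, Ifitm1, Ifitm2, Ifitm3, Ifitm6 and Ifitm10. They were matched by symbol to a table of 53465 genes that lists 7 Ifitm genes in all, and the set was selected on the measured counts of Ifitm1, the gene that differs most between aPD-1 non-responder and IgG control tumors by the test across all genes. The values of these 14 tumors therefore chose Ifitm1, so that its levels are described without a test. The difference between non-responders and IgG controls is described without a test for every member. Ifitm2, Ifitm3, Ifitm6 and Ifitm10 were tested in the comparisons with responders, which the rule that chose Ifitm1 did not use. The members were still chosen with earlier results of these data known.

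MC38 is a mouse colon carcinoma line. All 16 tumors grew under the skin of the right flank of female C57BL/6 mice aged 6 to 8 weeks after injection of MC38 cells, and were enrolled at 150 to 250 mm3 on day 16. On days 16 and 20 the mice received 200 µg of a control IgG (8 tumors) or of an antibody against PD-1, named aPD-1 (8 tumors), and the tumors were taken on day 21. The study designated 2 of the aPD-1 tumors as responders and 6 as non-responders from CD8 T cell staining of the same tumors, so the response groups differ in T cell content by definition. Each tumor came from another mouse. Poly(A) RNA from 2 sections of 100 microns of the frozen block was sequenced from each, which samples tumor cells, stroma and immune cells together. In such bulk RNA, fewer cells of a type and less RNA per cell cannot be told apart.

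IFITM proteins sit in the plasma membrane and in endosomal membranes, where they hinder the fusion of enveloped viruses with the cell. Their genes are typical targets of type I interferons and of interferon gamma, whose receptors signal through JAK kinases, STAT factors and IRF factors. Ifitm1 is found mostly at the cell surface, while Ifitm2 and Ifitm3 act mostly in endosomes. Ifitm6 is known from blood cell lineages, and Ifitm10 is a more distant relative with no well described antiviral role.

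In GRCm38, the build of the files, 4 of the members lie together on chromosome 7. Ifitm2 (ENSMUSG00000060591) spans chr7:140954837-140955987 on the minus strand. Ifitm1 (ENSMUSG00000025491) spans chr7:140967221-140969825 on the plus strand. Ifitm3 (ENSMUSG00000025492) spans chr7:141009586-141010770 and Ifitm6 (ENSMUSG00000059108) spans chr7:141015699-141017924, both on the minus strand. Ifitm10 (ENSMUSG00000045777) lies apart, at chr7:142325837-142373753 on the minus strand, downstream of the cathepsin D gene Ctsd, from which it is separated by 2158 bases. The annotated exons of these genes come to 655 bases for Ifitm2, 678 for Ifitm3, 905 for Ifitm6, 1094 for Ifitm1 and 4789 for Ifitm10.

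The sequences before the RefSeq starts of Ifitm1, Ifitm2 and Ifitm3 are shown because these neighbours differ in level and in how far they differed between groups. They begin 250 bases before the RefSeq transcription start in GRCm38.p6, run 5′ to 3′ on the strand of the gene, and stop where an annotated GENCODE exon of the gene begins. The RefSeq start of Ifitm1, at position 140968076, lies inside the gene span given above, which begins with the first exon of a longer GENCODE transcript, so that the Ifitm1 sequence is also part of an intron of that transcript. Capitals mark a match to the core of the interferon-stimulated response element (ISRE), the site of STAT and IRF complexes, searched as GAAANNGAAA on both strands.
Ifitm1, chr7:140967826-140968027, plus strand: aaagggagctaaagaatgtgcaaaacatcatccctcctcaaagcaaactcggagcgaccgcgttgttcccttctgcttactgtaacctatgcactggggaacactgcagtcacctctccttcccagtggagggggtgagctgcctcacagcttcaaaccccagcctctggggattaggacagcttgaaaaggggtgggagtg
Ifitm2, chr7:140955988-140956211, minus strand: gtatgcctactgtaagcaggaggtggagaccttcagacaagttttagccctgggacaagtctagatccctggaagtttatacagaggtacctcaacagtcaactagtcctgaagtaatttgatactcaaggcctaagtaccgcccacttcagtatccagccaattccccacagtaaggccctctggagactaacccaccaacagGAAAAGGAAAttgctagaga
Ifitm3, chr7:141010771-141010994, minus strand: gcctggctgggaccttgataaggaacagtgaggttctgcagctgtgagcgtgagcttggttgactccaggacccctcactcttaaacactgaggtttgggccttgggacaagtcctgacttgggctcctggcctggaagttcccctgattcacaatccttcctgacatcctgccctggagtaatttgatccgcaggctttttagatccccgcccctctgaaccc

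The ISRE core was found once, upstream of Ifitm2, 46 to 37 bases before the start. The search covered the full 250 bases before each start, exon bases included, and 2.98% of 32851 such windows in the RefSeq table held it. The gamma-activated sequence (GAS), searched as TTCNNNGAA on both strands, was found in 7.02% of the windows. Among the members it occurred at Ifitm6 only, 10 to 2 bases before the RefSeq start, as TTCCTTGAA. That start also lies inside the gene span, and the 16 bases before it, which hold the match, belong to an annotated GENCODE exon. The windows of Ifitm1 and Ifitm3 and the 3 windows of Ifitm10 held neither of these strings. Both matches stand alone, with no overlap of the ISRE core and GAS strings. A match is a string of letters in a window, and its absence says nothing of a factor.

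Total counts per tumor lay between 26603449 and 39948866. In 3 tumors a larger share of counts came from mitochondrial genes, 7.60% in IgG control replicate 1, 6.00% in non-responder replicate 9 and 5.73% in non-responder replicate 14, against 2.52% to 3.25% in the other 13. In IgG control replicate 3, 20.4% of counts fell on the entry CT010467.1. The epithelial markers Epcam, Krt8, Krt18 and Krt19 were each at or below 1.80 CPM (counts per 1000000 counts of the library, scaled by the TMM method) in every IgG control and non-responder, and of the epithelial markers examined only Cdh1 was above that in these tumors, at 3.75 to 8.12 CPM. In the responders the summed level of the epithelial markers was 50.4 and 116 CPM, that of T cell markers 240.4 and 253 CPM, that of B cell markers 272 and 1070 CPM and that of adipocyte markers 213 and 1180 CPM. The highest sums in any other tumor were 11.9, 35.5, 6.99 and 79.6 CPM for these lists. The responders thus differ from the other tumors in the markers of several cell types. Non-responders also tended to exceed IgG controls in T cell and B cell markers, although the sums overlapped. The log2 fold change between these groups was positive for 8 of 8 T cell markers (median 0.65) and 6 of 6 B cell markers (median 0.60). For adipocyte and epithelial markers it was positive in 0 of 5 and 1 of 5. The part of all these markers in the differences below was not tested.

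Ifitm3 and Ifitm2 made up most of the IFITM RNA in every tumor. Per kilobase of exon, the mean level over 16 tumors was 352 CPM for Ifitm3 and 192 CPM for Ifitm2, above 99.3% and 98.8% of 18230 genes. Ifitm1 was at 13.3 CPM per kilobase, above 79.4% of genes. Ifitm6, at 0.832, and Ifitm10, at 0.0437 CPM per kilobase, were above 31.7% and 2.44% of genes. The ranges over tumors did not overlap between neighbours of this order, except for Ifitm6, at 0.0840 CPM per kilobase in IgG control replicate 1, and Ifitm10, at 0.194 in responder replicate 16. All 5 members passed the filter on low counts, but Ifitm10 reached its level of 0.293 CPM in 3 tumors, both responders and non-responder replicate 13. Of the Ifitm genes outside the set, Ifitm5, a gene of bone-forming cells, averaged 0.286 CPM, and Ifitm7 had at most 4 counts in a tumor and was not tested.

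Ifitm1 was higher in most non-responders than in IgG controls, and this is the difference by which it was chosen. In the IgG controls its lowest, median and highest levels were 5.55, 8.12 and 12.02 CPM, from 194 to 434 counts. In the non-responders they were 11.4, 23.6 and 30.7 CPM, from 375 to 1211 counts. Of the 6 non-responders, 5 lay above every IgG control, and replicate 9 lay inside the IgG range. The responders were at 16.3 and 18.4 CPM, above every IgG control and inside the range of the non-responders. Both responders lay above every IgG control in 19.3% of all genes tested.

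The means were 8.60 ± 2.41 CPM (SD, n = 8) in IgG controls, 21.4 ± 7.71 (n = 6) in non-responders and 17.4 ± 1.47 (n = 2) in responders. The fitted log2 fold change of Ifitm1 was 1.32 (SE 0.23) for non-responders against IgG controls. For responders it was 1.02 (SE 0.31) against IgG controls and -0.30 (SE 0.35) against non-responders, comparisons that share tumors with the one that chose the gene. By p-value Ifitm1 ranked 1 of 18251 genes in edgeR and 3 in DESeq2 between non-responders and IgG controls, while by fold change it ranked 136. Among the other members, the next rank by p-value was that of Ifitm3, at 442.

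Between non-responders and IgG controls, edgeR called 0.0% of 18251 genes higher and 0.0% lower where a call needs an adjusted p below 0.05 and a change of more than 1 on the log2 scale, and 694 genes had an unadjusted p below 0.05. DESeq2 called 4 genes, Apol7c, Gm44170, Ttr and Ifitm1, named after their values were seen. For Ifitm1 this follows from its choice and is no test of it. In 0.296% of all genes tested, 5 or more of the 6 non-responders lay above every IgG control, the placement by which Ifitm1 stands out and which follows from its choice.

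**Figure D1:**
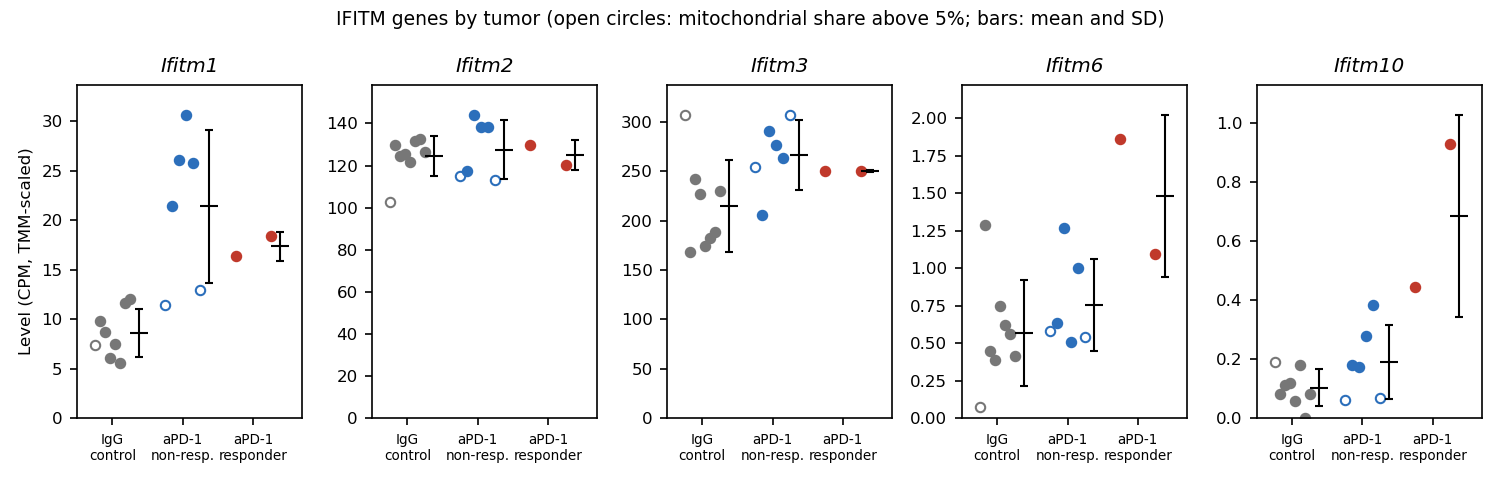
Levels of the 5 IFITM genes in CPM (vertical axes, each from 0) in 8 tumors given IgG and in 8 given aPD-1, of which 6 are non-responders and 2 are responders. Each point is a tumor, open where the mitochondrial share of counts is above 5%, and the bar beside each group is its mean with SD. Ifitm1 runs from 5.55 to 12.02 CPM in IgG controls and from 11.4 to 30.7 CPM in non-responders, Ifitm2 and Ifitm3 overlap in all groups, and Ifitm10 is highest in the responders at 0.443 and 0.928 CPM.

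The 2 lowest non-responders for Ifitm1, at 11.4 and 12.97 CPM, were replicates 9 and 14, the non-responders with high mitochondrial shares. IgG control replicate 1, with the highest share, was at 7.37 CPM, inside the range of the other IgG controls. Without these 3 tumors, Ifitm1 was at 5.55 to 12.02 CPM in 7 IgG controls and at 21.4 to 30.7 CPM in 4 non-responders, with no overlap and a log2 fold change of 1.57 (SE 0.19). In 0.838% of genes every one of these 4 non-responders lay above every one of these 7 IgG controls. The tumors were set aside after the data were seen. They were also the lowest of their groups in summed macrophage and monocyte markers. These sums were 922 and 919 CPM in non-responder replicates 9 and 14 and 794 CPM in IgG control replicate 1. Non-responder replicates 11, 12 and 13, the highest in Ifitm1, were the highest non-responders in that sum, at 1358, 1293 and 1232 CPM. All 3 lay above the highest IgG control, at 1189 CPM. Replicate 10, at 21.4 CPM of Ifitm1, had a sum of 992 CPM, inside the IgG range. The part of the mitochondrial share or of these markers in the level of Ifitm1 was not tested.

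**Figure D2:**
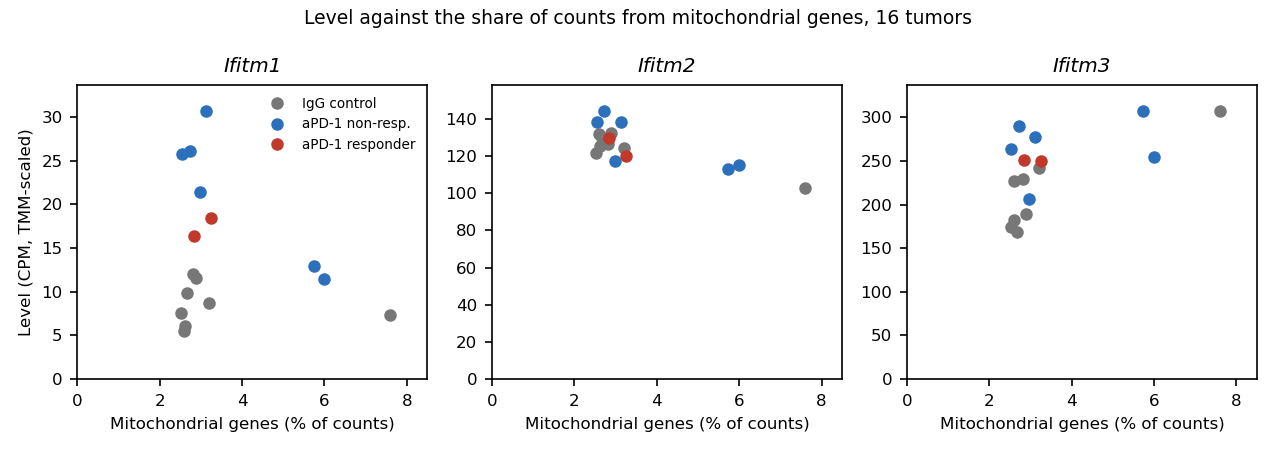
Levels of Ifitm1, Ifitm2 and Ifitm3 in CPM (vertical axes) against the share of counts from mitochondrial genes in percent (horizontal axes), 1 point per tumor, colored by group. The 3 tumors at 5.73% to 7.60% are among the lowest of their groups for Ifitm2, and IgG control replicate 1 and non-responder replicate 14 are the highest of their groups for Ifitm3.

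Ifitm2, an endosomal member, had similar levels in the 3 groups. It lay between 103 and 132 CPM with a median of 126 in IgG controls, and between 113 and 144 CPM with a median of 128 in non-responders. The responders were at 129.9 and 120.1 CPM, inside both ranges. The log2 fold change was -0.03 (95% interval -0.29 to 0.23) for responders against non-responders and 0.01 (-0.25 to 0.26) against IgG controls, with Benjamini-Hochberg adjusted p-values of 0.909 and 0.977 in edgeR's quasi-likelihood test. These intervals hold no change of 1 on the log2 scale in either direction. For non-responders against IgG controls the value was 0.04 (SE 0.08), and 3 of the 6 non-responders lay above every IgG control. The lowest Ifitm2 level of the IgG controls, 103 CPM, and of the non-responders, 113 and 115 CPM, were those of the 3 tumors with high mitochondrial shares.

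Ifitm3, the member best known for blocking virus entry from endosomes, was highest in IgG control replicate 1 and non-responder replicate 14, both tumors of high mitochondrial share. The IgG controls ranged from 168 to 307 CPM with a median of 208, and the non-responders from 206 to 307 CPM with a median of 270.04 CPM. The responders were nearly equal, at 250.6 and 249.7 CPM. All 3 groups overlapped. Responders differed by a log2 fold change of -0.09 (95% interval -0.52 to 0.34) from non-responders and of 0.22 (-0.18 to 0.62) from IgG controls, and neither passed (adjusted p = 0.821 and 0.464, edgeR's quasi-likelihood test). For non-responders against IgG controls the value was 0.31 (SE 0.13), and 1 of the 6 non-responders lay above every IgG control.

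Ifitm6, the member known from blood cell lineages, was near 1 CPM or below it in most tumors. It had 2 to 47 counts in IgG controls, at 0.0760 to 1.29 CPM with a median of 0.506, and 16 to 44 counts in non-responders, at 0.506 to 1.27 CPM with a median of 0.609. The responders had 63 and 39 counts, at 1.86 and 1.097 CPM, of which the higher lay above all other tumors. The log2 fold change was 0.96 (95% interval -0.26 to 2.18) against non-responders and 1.36 (0.22 to 2.51) against IgG controls. Neither passed in edgeR's quasi-likelihood test, at adjusted p-values of 0.283 and 0.0839. Against IgG controls Ifitm6 passed without IgG control replicate 2, at a log2 fold change of 1.65 (adjusted p = 0.0253, edgeR). That tumor was the highest of its group, so that its removal favored this pass. Ifitm6 also passed without the 3 tumors of high mitochondrial share, at 1.15 (adjusted p = 0.0430, edgeR). With each tumor left out in turn, its log2 fold change against IgG controls lay between 0.86 and 1.65.

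Ifitm10 had the largest fold change of the members in both responder comparisons, at very low counts. The IgG controls had 0 to 7 counts, at 0 to 0.190 CPM with a median of 0.0977, and the non-responders 2 to 15 counts, at 0.0610 to 0.385 CPM with a median of 0.178. The responders had 15 and 33 counts, at 0.443 and 0.928 CPM. Both responders lay above every other tumor. Of all genes tested, 19.3% had both responders above every IgG control and 21.5% had both above every non-responder.

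Against IgG controls the log2 fold change of Ifitm10 was 2.71 (SE 0.65, 95% interval 1.33 to 4.09), which edgeR's quasi-likelihood test called (adjusted p = 0.00565). Against non-responders it was 1.80 (0.36 to 3.25) and did not pass (adjusted p = 0.0766, edgeR). Since Ifitm10 entered the test through its high tumors, 2 of them responders, a higher value in responders was favored by the filter. The call against IgG controls was lost without responder replicate 16, at a log2 fold change of 2.02 (adjusted p = 0.144, edgeR), and Ifitm10 was not tested where 10 counts were required in 8 tumors. The comparison with non-responders passed without non-responder replicate 13, at 2.12 (adjusted p = 0.0434, edgeR). Replicate 13 was the highest non-responder and the only one at the level of the filter. Without it Ifitm10 stayed in the test through the responders alone, so that both the filter and the removal favored this pass. Gm49369, an annotated transcript that overlaps Ifitm10 on the same strand, averaged 0.0600 CPM, and Ifitm10 counts were not whole numbers in 1 of 16 tumors, so that the division of reads between them is uncertain. Ifitm2, whose counts were not whole in 3 tumors, likewise overlaps Gm45717 on the same strand, at a mean of 0.00728 CPM. The counts of Ifitm1, Ifitm3 and Ifitm6 were whole in all 16 tumors.

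Of Ifitm2, Ifitm3 and Ifitm6, the 3 other members tested, edgeR called 0 in each responder comparison. Before adjustment, 1 had a p below 0.05 against IgG controls and 0 had one against non-responders, in edgeR and in DESeq2. DESeq2 called 0 of them in either comparison. Of all genes tested, edgeR called 14.3% higher and 0.641% lower against IgG controls, and 12.5% higher and 0.663% lower against non-responders. The count of all genes called depended on the responders: without responder replicate 15 it fell from 2730 to 1240 against IgG controls and from 2407 to 932 against non-responders.

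**Figure D3:**
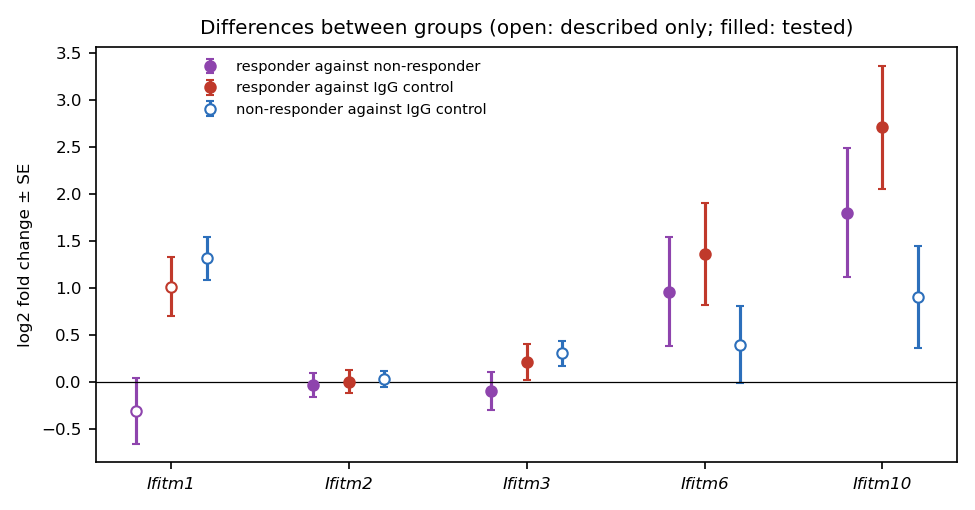
Fitted log2 fold changes of the 5 IFITM genes (vertical axis) with SE for the 3 comparisons, open where the values are described only and filled where they were tested. Ifitm2 stays near 0 in every comparison, Ifitm1 is at 1.32 and 1.02 against IgG controls, and Ifitm10 reaches 2.71 for responders against IgG controls.

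The ratio of the Ifitm1 to the Ifitm2 level, which needs no scaling between tumors, was 0.0421 to 0.0951 in IgG controls and 0.0995 to 0.222 in non-responders. The 2 ranges nearly met, and how many other genes are placed so by their ratio to Ifitm2 was not counted. In the responders it was 0.126 and 0.153. The non-responder range includes replicates 9 and 14, whose Ifitm1 and Ifitm2 levels were both low among the non-responders. The comparison of these ratios rests on the values that chose Ifitm1. The ratio of Ifitm3 to Ifitm2 was 1.298 to 2.98 in IgG controls, 1.76 to 2.72 in non-responders and 1.93 and 2.08 in responders, and overlapped throughout. Ifitm1 made up 1.70% to 3.48% of the summed IFITM level in IgG controls, 2.99% to 6.87% in non-responders and 4.10% and 4.72% in responders.

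Over 12 pairs of Ifitm1, Ifitm2, Ifitm3 and Ifitm6 in the 8 IgG controls or the 6 non-responders, 1 Pearson correlation of log2 CPM passed adjustment. In IgG controls, Ifitm6 was lower where Ifitm3 was higher, with r = -0.937 (exact permutation p = 0.000248, adjusted 0.00298). Spearman's rho of this pair was -0.905 (exact permutation p = 0.00456, adjusted 0.0548). Without the 2 tumors farthest from the median of Ifitm3, r was -0.930. In the non-responders the same pair had r = 0.125 (exact permutation p = 0.808), and the difference between the groups was not tested. The other 11 Pearson correlations did not pass, with adjusted exact permutation p-values of 0.117 or more, although the groups are small and some were sizeable. Of these, r was 0.862 for Ifitm1 and Ifitm2 in non-responders, 0.833 for Ifitm2 and Ifitm6 in IgG controls and -0.776 for Ifitm2 and Ifitm3 in IgG controls. Without the 2 tumors farthest from the median they were 0.771, 0.323 and -0.305.

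The genes most like each member over 16 tumors, by Pearson's r of log2 CPM among the 13940 genes that averaged 1 CPM or more, differed between members. The correlations are descriptions of points that share libraries and groups. For Ifitm1 they were Ltb4r1, a receptor for the lipid attractant leukotriene B4, with r = 0.891, Prl2c2, the chemokine gene Cxcl9, the Fc receptor gene Fcgr3 and the interferon-induced GTPase gene Tgtp1, down to r = 0.846. Over the 14 tumors that are not responders, these 5 had r between 0.855 and 0.898. The values of these 14 tumors chose Ifitm1, and the 5 genes were picked over the 16 tumors that include them. Their high r over the 14 therefore follows in part from both choices and is no test. Cxcl9, an attractant of T cells induced by interferon gamma, was at 56.3 to 126 CPM in IgG controls, 119 to 259.7 CPM in non-responders and 136 and 208 CPM in responders, with an overlap of non-responders and IgG controls between 119 and 126 CPM.

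For Ifitm3 the likest genes were Bst2, which encodes the interferon-induced virus tether tetherin, with r = 0.956, the MHC class I genes H2-Q7 and H2-Q6, the nucleic acid sensor gene Zbp1 and Tmem106a, down to r = 0.910. Bst2 was highest in IgG control replicate 1, at 498 CPM, the IgG control that was also highest in Ifitm3. For Ifitm2 they were led by Ifngr2, a chain of the interferon gamma receptor, with r = 0.917. Mtch1, Lrpap1, Pisd and Sumf1 followed, down to r = 0.853. Ifngr2 had means of 54.2 ± 5.47 CPM (SD, n = 8), 53.8 ± 7.16 (n = 6) and 54.6 ± 2.98 (n = 2).

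For Ifitm6 the likest genes were led by Cma1 and Cpa3, which encode the mast cell proteases chymase and carboxypeptidase A3, with r = 0.890 and 0.886. Cma1 was at 0.228 CPM in IgG control replicate 1 and at 25.7 CPM in responder replicate 15, the tumors with the lowest and the highest Ifitm6. The summed level of 7 mast cell and basophil markers was 6.69 to 53.2 CPM in IgG controls, 12.9 to 48.3 in non-responders and 105 and 37.99 in responders. That of the neutrophil markers was 44.1 to 120.2, 53.4 to 112 and 77.1 and 109 CPM, with Ly6g at 0 in every tumor. Mmp9 weighed most in these neutrophil sums, at 39.3 to 113, 45.2 to 101 and 62.0 and 77.9 CPM. Cxcr2, at 4.58 and 4.85 CPM, and Retnlg, at 0.325 and 2.02 CPM, were above all other tumors in both responders. Of all genes tested, 19.3% lay so against IgG controls and 21.5% against non-responders. The other neutrophil markers detected overlapped. The part of the mast cell, basophil and neutrophil markers in Ifitm6 was not tested. For Ifitm10 the likest gene was Slc7a2, an amino acid transporter gene, with r = 0.884 over all tumors and 0.752 without the responders.

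**Figure D4:**
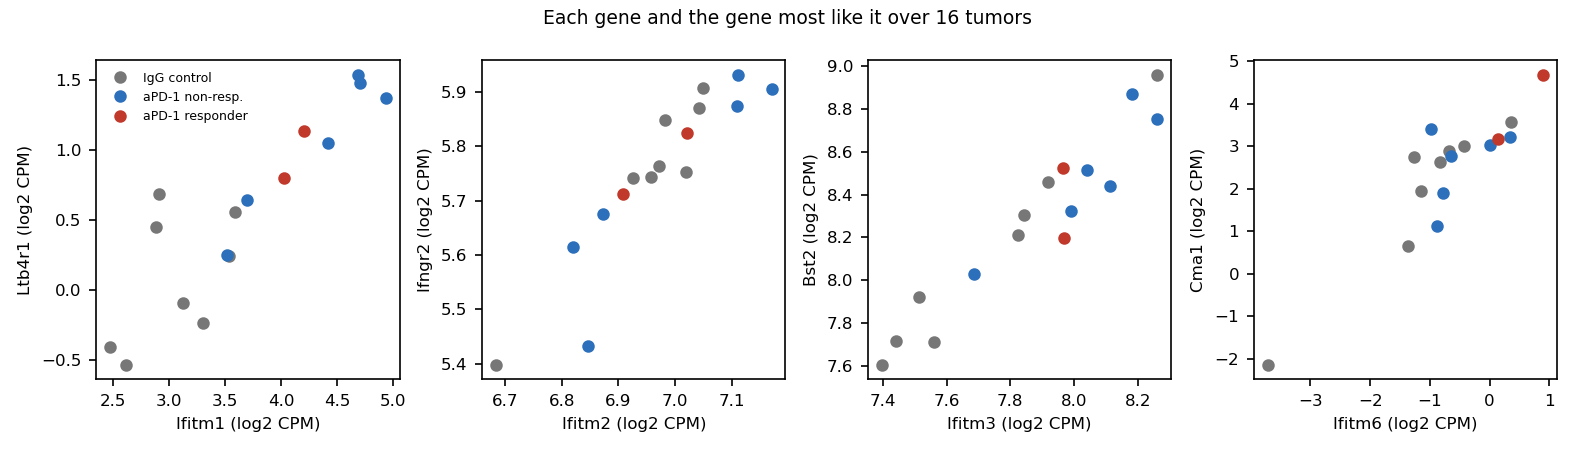
Levels of Ifitm1, Ifitm2, Ifitm3 and Ifitm6 (horizontal axes, log2 CPM) against the gene most like each (vertical axes, log2 CPM), 1 point per tumor, colored by group. Ltb4r1 follows Ifitm1 with r = 0.891, Ifngr2 follows Ifitm2 with r = 0.917, Bst2 follows Ifitm3 with r = 0.956 and Cma1 follows Ifitm6 with r = 0.890, the last with IgG control replicate 1 far below the other tumors.

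The interferon pathway around the IFITM genes was described by lists chosen with earlier results of these data known. Of the 6 interferon ligands listed, 2 were tested, Ifng and Ifnb1. Ifng, the gene of interferon gamma, was at 0.360 to 1.97 CPM in IgG controls, 0.729 to 3.37 CPM in non-responders and 2.01 and 7.40 CPM in responders. It rose in responders against IgG controls, by a log2 fold change of 2.44 (SE 0.55; adjusted p = 0.00335, edgeR's quasi-likelihood test), a call that was lost without responder replicate 16. Ifnb1, the gene of interferon beta, had values of 0.40 against IgG controls and -0.66 against non-responders (adjusted p = 0.823 and 0.728, edgeR). Against non-responders 0 of the 2 ligands were called, with 0 at an unadjusted p below 0.05, in edgeR and in DESeq2.

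Of 14 receptors and signalling genes, 1 was called higher in responders in each comparison, beside the 12.5% and 14.3% of all genes given above. It was Irf8, a factor of myeloid and B cells. Irf8 was at 22.9 to 49.5 CPM in IgG controls, 31.8 to 53.7 in non-responders and 93.8 and 138 CPM in responders, a log2 fold change of 1.37 (SE 0.24) against non-responders (adjusted p = 0.000552, edgeR). Without responder replicate 15 this call was lost against non-responders and remained against IgG controls. The median log2 fold change of the 14 was 0.31 against non-responders and 0.61 against IgG controls, beside 0.02 and -0.02 over all genes tested. Against IgG controls it fell to 0.39 without responder replicate 16.

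Of 32 other interferon-stimulated genes, 1 was called higher in each responder comparison, a smaller share than the 12.5% and 14.3% of all genes, which was not tested. It was Ifi27l2a, at 65.6 and 208 CPM in responders and at most 57.6 CPM in any other tumor. Its call was lost in both comparisons without responder replicate 15. The median of the 32 was -0.11 against non-responders and 0.17 against IgG controls, and its sign rested on single responders. Without replicate 15 it was 0.12 and 0.30, and without replicate 16 it was -0.41 and -0.15. For non-responders against IgG controls it was 0.25, beside -0.01 over all genes, and the value of Ifitm3 was 0.31. With edgeR and with DESeq2, 0 of the 32 were called between these groups, and 10 had an unadjusted p below 0.05 in each tool, beside 694 of 18251 genes in edgeR and 787 in DESeq2.

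Among 8 other genes of the CD225 family, to which the IFITM proteins belong, 5 were tested. Of these 5, 2 were called higher in both responder comparisons, Trarg1 and Syndig1l, beside the 12.5% and 14.3% of all genes given above. Where 10 counts were required in 8 tumors, 2 genes of the list were tested and Trarg1 alone was called. Syndig1l reached the level of the low-count filter in the 2 responders alone, which favored its call. Trarg1, which takes part in glucose transporter traffic in fat cells, was at 3.49 and 24.3 CPM in responders and at most 1.74 CPM elsewhere, beside the adipocyte markers given above. Without responder replicate 15, 1 of these calls was left in each comparison, Trarg1 against non-responders and Syndig1l against IgG controls. Ifitm5 had a log2 fold change of -0.90 (SE 0.71; adjusted p = 0.439, edgeR) against non-responders. Among 11 partners and modifiers of IFITM proteins, Cr2, a complement receptor gene of B cells, was called higher in both responder comparisons. Cr2 was at 29.7 and 162 CPM in responders and at most 0.959 CPM elsewhere, beside the B cell markers given above. Without the 3 tumors of high mitochondrial share, Socs1 joined Irf8 and Tmem91 joined Trarg1 and Syndig1l as calls against IgG controls, and Ifnb1 was no longer tested. No gene of these 5 lists was called lower in responders, nor called in either direction between non-responders and IgG controls. Between the latter groups, edgeR gave an unadjusted p below 0.05 to 1 of 2 ligands, 3 of 14 signalling genes, 0 of 5 CD225 genes and 1 of 11 partners, and DESeq2 called 0 in every list.

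**Figure D5:**
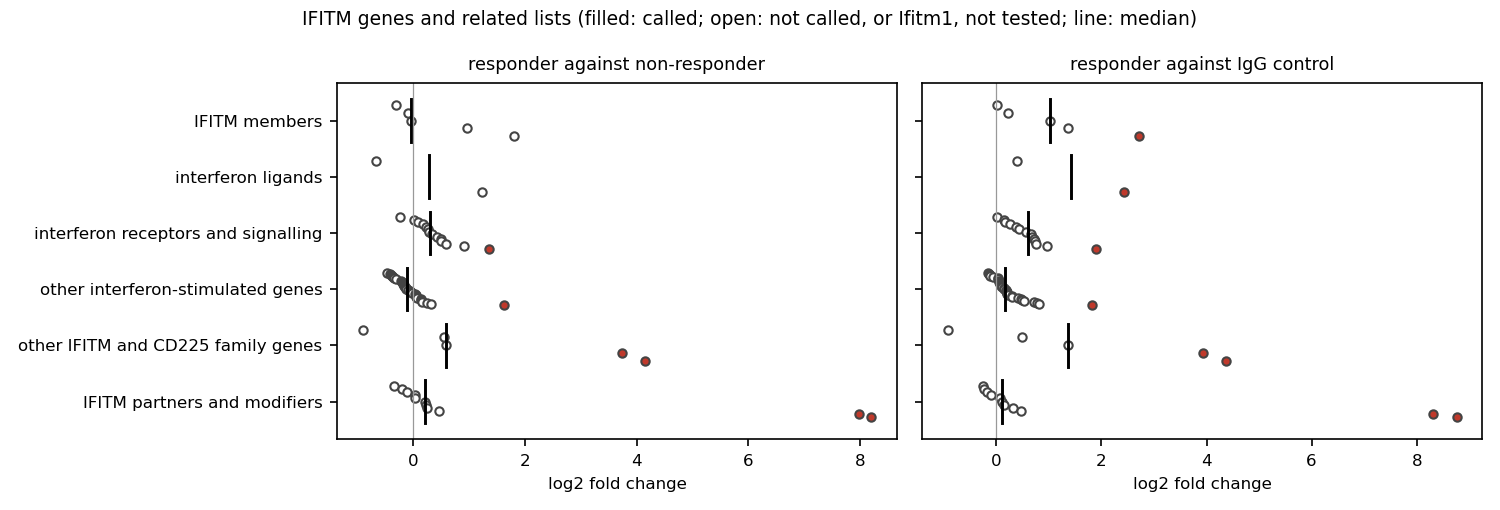
Log2 fold changes (horizontal axes) of the IFITM members and of the genes of 5 related lists for responders against non-responders and against IgG controls. Each point is a gene, filled where edgeR called it, Ifitm1 is drawn as an empty circle since it was not tested, and the line is the median of the list; the signalling list has medians of 0.31 and 0.61 and the other interferon-stimulated genes of -0.11 and 0.17.

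Among the chromosomal neighbours, Pgghg, 7173 bases from Ifitm2, was at 10.8 to 17.5 CPM in IgG controls, 12.4 to 21.1 in non-responders and 14.4 and 17.0 CPM in responders, which overlapped throughout. Its log2 fold change was 0.13 (SE 0.14) for non-responders against IgG controls. Ctsd, the neighbour of Ifitm10, had a log2 fold change of 0.50 (SE 0.27; adjusted p = 0.221, edgeR) for responders against IgG controls. B4galnt4, a gene 43180 bases from Ifitm6, rose in responders by 2.65 (SE 0.72; adjusted p = 0.0120, edgeR) against IgG controls, at a mean of 0.179 CPM over all tumors. It reached the level of the low-count filter in the 2 responders alone, which favored this call.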

How the data were processed

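Poly(A) RNA of 16 tumors was measured, 1 library per tumor and mouse, so that replicates are separate animals. The authors aligned paired reads to GRCm38 with STAR 2.6 and estimated gene values over Ensembl genes with RSEM 1.3.0, as the submitters' processing notes and the study's methods give them. The values deposited by the authors are expected counts per gene without normalization, which divide reads that fit several genes; 7.83% were not whole, and Ifitm2 was not whole in 3 tumors. They were rounded to whole counts here. A further 92 entries that name no gene, with at most 185 counts in a tumor, were left out. Symbols, coordinates and exon lengths came from GENCODE mouse annotation of the same build, and promoters from RefSeq (GRCm38.p6). Protein sequences were not used here.

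edgeR 4.0.16 in R 4.3.3 was run with TMM scaling, its low-count filter over the 3 groups, robust dispersions and the quasi-likelihood test, with the 16 tumors fitted together. Benjamini-Hochberg adjustment covered 18251 genes. A call needed an adjusted p below 0.05 together with a log2 change of more than 1 in either direction, and fold changes are given with SE or 95% interval. Of these steps, the edgeR test of responders against non-responders was tried on simulated counts. All genes had the same spread there, and changes were put only in genes averaging above 1 CPM. Levels as low as those of Ifitm10 were therefore not covered. Correlations within groups used all orders of the tumors, two-sided. No 2 libraries were copies: over 120 pairs, chi-square divided by its degrees of freedom was at least 17.7. Python 3.11.15 with numpy 2.4.6, pandas 2.3.3 and scipy 1.17.1 did the other steps.

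The members and lists were chosen with earlier results of these data known. The genes named were the members, up to 3 called genes of each list by adjusted p, the 5 genes of highest Pearson's r with each member (log2 CPM, prior count 2), protein-coding genes within 50 kb, and markers. A few genes under this rule are not reported here. Ifnb1 and Ifitm7 were named beside them as list members. The alternatives were DESeq2 1.42.0, median-of-ratios size factors, no low-count filter, 10 counts in 8 tumors, a fit of the 2 groups compared, each tumor left out in turn, Spearman's rho for likeness and, added after the data were seen, the 3 tumors with more than 5% mitochondrial counts left out.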

Additional observations from a re-analysis of the deposited data

Results flagged for a closer look

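Among 16 sets of levels or ratios of the members in the IgG controls and the non-responders, 2 held a tumor far from the others, and chance alone sets 5% of groups apart in this way. Both are IgG control replicate 1, the tumor with the highest mitochondrial share. Its Ifitm2 level of 102.8 CPM was the lowest of the 8 IgG controls, with the next at 121.6 CPM. Its ratio of Ifitm3 to Ifitm2 of 2.98 was the highest, with the next at 1.94. The ratio contains the same low Ifitm2 level, so that the 2 are not separate observations. The part of the mitochondrial share in either value was not tested.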

How the results depend on the processing

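No paired analysis was possible because the replicate numbers run on from group to group and no number is shared. Between non-responders and IgG controls, 0 genes were called by edgeR, 4 by DESeq2, 1 without the 3 tumors of high mitochondrial share (Ifitm1, whose choice used this contrast, so that the call is no test of it), and 0 to 2 with each tumor left out in turn; the 2, without IgG control replicate 1, were Gm4841 and Ubd. The number called ranged from 1240 to 2947 against IgG controls and from 932 to 2594 against non-responders with each tumor left out, lowest without responder replicate 15. A lone responder was taken to vary like the tumors of the other groups. The fold change of Ifitm2, near 0, changed sign for responders against IgG controls with no low-count filter (-0.065), without the 3 tumors of high mitochondrial share (-0.082) and with tumors left out in turn (-0.12 to 0.023), and against non-responders with tumors left out (-0.16 to 0.0078). The log2 fold change of Ifitm1 for non-responders against IgG controls was 1.18 to 1.44 with each tumor left out and 1.31 to 1.57 under the other settings. For Ifitm10 against IgG controls, adjusted p-values were 0.00364 to 0.144 with a tumor left out and 0.00158 to 0.0108 under the other settings in which it was tested (edgeR and DESeq2). By Spearman's rho, 3 of the 5 genes most like Ifitm1 stayed among the first 5, as did 1, 2, 0 and 1 for Ifitm2, Ifitm3, Ifitm6 and Ifitm10. The cause of these changes was not tested. With 2 responders and counts of 15 and 33, Ifitm10 is the member whose values depth limits most.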
